A study of Mus musculus with 10 samples.

Results

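The matrix metalloproteinases, the ADAMTS proteases, their tissue inhibitors and the lysyl oxidases were followed in RNA-seq of the mouse right atrium. Members were every gene row whose symbol was Mmp, Adamts, Timp, Lox or Loxl with its number, which gave 51 of the 23337 genes in the table. They comprised 23 Mmp genes, 19 Adamts genes, 4 Timp genes and 5 lysyl oxidases. The study asked how gene expression in the adult atrium differs once the transcription factor Tbx5 is removed, and it gave 1 library from each of 10 mice. The 4 mice labelled control (M1, M2, F1 and F2) carried, as the study's methods describe its controls, the R26CreERt2 driver, a tamoxifen-inducible Cre recombinase expressed from the ubiquitous Rosa26 promoter. The 6 mice labelled with R26Cre-driven Tbx5 removal (F1 to F3 and M1 to M3) carried in addition the floxed allele Tbx5 fl/fl, in which Cre excises exon 3 in any cell type of the heart. All 10 mice received 0.167 mg of tamoxifen per day for 3 days and were sampled 1 week later. They were of mixed strain, with an age of 8 to 10 weeks in the labels and of 6 to 8 weeks in the protocol. Tissue came from the right atrium, and the study's methods describe dissection of the atrial appendages. Such tissue holds many cell types, so fewer cells of a type and less RNA per cell cannot be told apart.

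The total count per library lay between 5703775 and 7095141. In 9 libraries the ribosomal precursor Rn45s took between 0.268% and 1.49% of the counts, and in mutant M3 it took 38.9%, which left 3484550 counts for other genes. Tbx5 itself was higher in the mice labelled mutant, at 394 ± 83.3 CPM (counts scaled to library size; SD, n = 6) against 205 ± 17.8 in the control mice (SD, n = 4), and every labelled mutant lay above every control. The excised exon is a small part of the gene, so a count over the whole gene does not check its loss. Directions below are therefore relative to the labels. Xist and Ddx3y went against the labelled sex in each of the 4 control mice and with it in the 6 labelled mutants. The cardiomyocyte marker Myh6 had a mean of 24102 CPM in the control mice and 25813 CPM in the labelled mutants. The atrial markers Myl7 and Nppa had 6372 and 26827 CPM in the controls and 960 and 17114 CPM in the labelled mutants. Both were called lower (edgeR adjusted p = 9.36e-08 and 0.0426). The ventricular markers Myl2 and Irx4 together had 1.71 to 6.63 CPM in the controls and 6.51 to 33.7 CPM in the labelled mutants. Of these, Myl2 was called higher (log2 fold change 2.10, edgeR adjusted p = 0.00156).

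These 4 families build, trim and lock the extracellular matrix. Matrix metalloproteinases (MMPs) and ADAMTS enzymes are secreted or membrane-bound proteases that hold a zinc ion in the active site. The MMPs cleave collagens, gelatin, elastin and many other substrates, while the ADAMTS enzymes have narrower tasks, among them the removal of the amino-terminal propeptide of procollagen, the cleavage of large proteoglycans such as versican, and the handling of fibrillin microfibrils. TIMPs are small inhibitors that occupy the active site of MMPs, and Timp3 also inhibits ADAMTS enzymes. Lysyl oxidases are copper enzymes that oxidise lysines in collagen and elastin so that the fibres become crosslinked, and they are known from fibrotic hearts as determinants of tissue stiffness.

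The zinc site is the part of the coding sequence that the proteases share and that the inhibitors and oxidases lack, and it is shown here because it takes more than 1 form among the ADAMTS genes. Coding sequences of GENCODE M21 (build GRCm38) were searched in frame for 11 codons: histidine, glutamate, any 2 residues, histidine, any 2 residues, glycine, any 2 residues and histidine. The pattern was present in 23 of 23 Mmp genes, in 13 of 19 Adamts genes, in 0 of 4 Timp genes and in 0 of 5 lysyl oxidases, against 69 of all 21591 protein-coding genes (0.32%). With an asparagine codon in the place of the glycine codon it was present in 5 further Adamts genes (Adamts1, Adamts4, Adamts9, Adamts15 and Adamts20) and in no other protein-coding gene. These 5 belong to the 7 genes listed as proteoglycan-cleaving, of which Adamts5 had the glycine form and Adamts8 matched neither. In the 23 Mmp genes the 33 bases lay within 1 exon, and in each of the 17 Adamts genes placed on the genome they were split between 2 exons. The sequences of 8 proteases with changed transcripts follow, 5′ to 3′ on the coding strand, with the 3 histidine codons in capitals. The first 6 have the glycine form and the last 2 the asparagine form.
Mmp2: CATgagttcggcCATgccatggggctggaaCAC
Mmp9: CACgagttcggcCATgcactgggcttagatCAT
Mmp12: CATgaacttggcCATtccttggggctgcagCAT
Adamts2: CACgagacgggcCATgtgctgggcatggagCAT
Adamts6: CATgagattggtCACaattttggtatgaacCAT
Adamts7: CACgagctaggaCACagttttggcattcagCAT
Adamts1: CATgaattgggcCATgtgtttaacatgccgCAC
Adamts15: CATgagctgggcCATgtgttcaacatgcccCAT

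In GRCm38 the site of Mmp2 lies at chr8:92839279-92839311 in exon 8 of 13 on the forward strand. That of Mmp9 lies at chr2:164951133-164951165, also in exon 8 of 13 and on the forward strand, and that of Mmp12 at chr9:7352914-7352946 in exon 5 of 10 on the forward strand. Split sites span chr11:50775403-50776134 in Adamts2 (exons 7 and 8 of 22), chr13:104352847-104366809 in Adamts6 (exons 9 and 10 of 25) and chr9:90179456-90180640 in Adamts7 (exons 7 and 8 of 24), all on the forward strand. The remaining pair lie on the reverse strand, at chr16:85799191-85799545 in Adamts1 (exons 3 and 4 of 9) and chr9:30911255-30911690 in Adamts15 (exons 2 and 3 of 8).

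Of the 51 members, 35 passed the filter on low counts and were tested. The difference between the labelled groups was tested by edgeR's quasi-likelihood test over all 13084 genes that passed, with Benjamini-Hochberg adjustment. Calls required an adjusted p below 0.05, a difference of more than 1.5-fold up or down, and a mean deposited normalized signal above 1 across the control mice. By this rule 12 members were higher in the labelled mutants, which is 34.3% of those tested, while 8.50% of all genes tested were called higher. A further 6 members were lower, which is 17.1%, while 7.16% of all genes tested were called lower. In either direction 51.4% of the tested members were called, against 15.7% of all genes. The median log2 fold change was 0.38 over the tested members and -0.00 over all genes tested. The values of the labelled mutants and the controls did not overlap for 17 members (48.6%), all labelled mutants higher for 12 and all lower for 5, and for 22.7% of all genes tested. These 17 were the called members other than Mmp9 and Mmp12, with Adamts10 in addition. Of the 17 members that were not called, 4 had an adjusted p under 0.05 with a fold change under 1.5, namely Adamts9, Adamts10, Mmp14 and Mmp15.

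**Figure D1:**
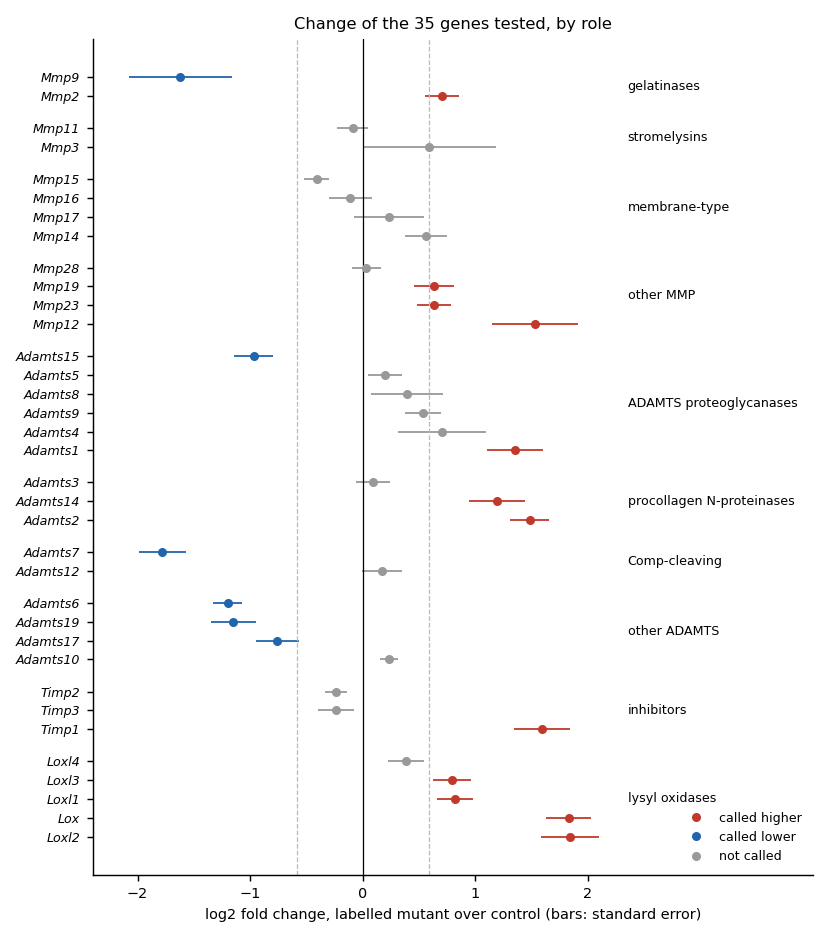
Log2 fold change of the 35 tested genes, mice labelled Tbx5 mutant over mice labelled control, with the standard error of the edgeR fit as bars and genes grouped by role. Dashed lines mark a fold change of 1.5 either way. The 4 called lysyl oxidases lie to the right, the ADAMTS genes lie on both sides, and Timp1 stands apart from Timp2 and Timp3.

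The lysyl oxidases were the family with the most uniform direction. Of 5 tested, 4 were called higher in the labelled mutants, none lower, and for these 4 every labelled mutant lay above every control mouse. Lox, the founding enzyme of the family, which crosslinks both collagen and elastin, had 8.29, 9.76, 4.70 and 6.23 CPM in controls M1, M2, F1 and F2. In the labelled mutants Lox ran from 20.7 to 35.5 CPM with a median of 24.5. Mutant M2 held the highest value, and even the highest control, M2, lay well below the lowest labelled mutant. Lox was 3.57-fold higher (log2 fold change 1.83 ± 0.20 SE, edgeR adjusted p = 1.96e-05).

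Loxl2, a lysyl oxidase that acts on collagen IV among other substrates, had 24.3, 20, 8.62 and 11 CPM in the controls and 42.6 to 79.8 CPM, median 55.5, in the labelled mutants. The control mice fell into a higher pair, M1 and M2, and a lower pair, F1 and F2, and both pairs lay below every labelled mutant. Its log2 fold change was 1.84 ± 0.26 (SE, edgeR adjusted p = 0.000176). Loxl1, which is needed for elastic fibre upkeep, had 73.0, 77.8, 41.4 and 63.5 CPM in the controls and 86.9 to 132 CPM, median 115, in the labelled mutants. The groups did not overlap, and the difference was smaller, at 0.82 ± 0.16 on the log2 scale (SE, edgeR adjusted p = 0.00197).

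Loxl3 had 17.1, 16.9, 10.8 and 13.5 CPM in the controls and 18.5 to 32.8 CPM, median 24.5, in the labelled mutants, with a log2 fold change of 0.79 ± 0.17 (SE, edgeR adjusted p = 0.00395). The highest control and the lowest labelled mutant were close, but did not cross. Loxl3 shares 11.6% of its exon bases with Htra2, and whether reads were counted by strand is not given in the sources used here, so reads of this stretch cannot be assigned to one of the genes. Loxl4, the fifth oxidase, had 7, 6.29, 5.02 and 5.82 CPM in the controls and 6.31 to 9.17 CPM in the labelled mutants, median 7.70. Its groups overlapped and it was not called (log2 fold change 0.38 ± 0.16 SE, edgeR adjusted p = 0.077).

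**Figure D2:**
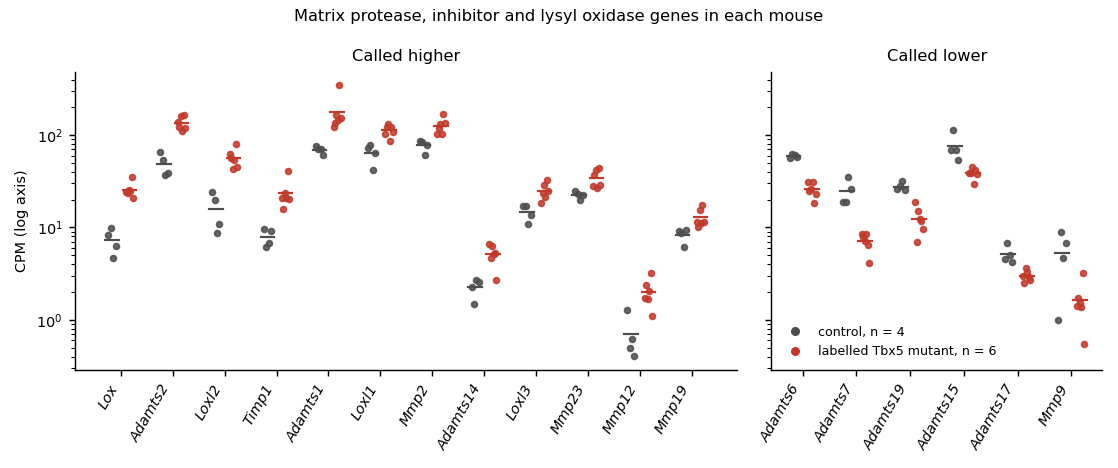
CPM of the 18 called genes in each mouse on a log axis, dark points for the 4 control mice and red points for the 6 mice labelled Tbx5 mutant, with group means as bars. The groups are apart for all but Mmp9 and Mmp12, and the single red point far above the others for Adamts1 is mutant M2 at 345 CPM.

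Of the 3 tested inhibitors, 1 was called higher and none lower. Timp1, the TIMP most readily induced in injured tissue, had 9.72, 6.12, 6.74 and 9.07 CPM in the controls. In the labelled mutants it ran from 16.0 to 41.1 CPM with a median of 20.9. All labelled mutants lay above all controls, and mutant M2, at 41.1 CPM, stood above the next mouse at 23.7 CPM. Timp1 was 3.00-fold higher (log2 fold change 1.59 ± 0.25 SE, edgeR adjusted p = 0.00037), and 1.36 on the log2 scale without mutant M2 (edgeR adjusted p = 7.35e-05). The gene lies within Syn1 on the opposite strand, with no exon base shared, and Syn1 itself had too few reads to be tested.

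Timp2 and Timp3 were the most abundant members per length in these atria, and neither was called. Timp2, which both inhibits MMPs and takes part in the activation of pro-Mmp2, had 204, 230, 199 and 231 CPM in the controls and 149 to 201 CPM, median 194, in the labelled mutants. Only the highest labelled mutants reached the lowest controls, and the log2 fold change was -0.24 ± 0.10 (SE, edgeR adjusted p = 0.0926). Timp3, which binds to the matrix and also inhibits ADAMTS enzymes, had 435, 639, 634 and 768 CPM in the controls and 398 to 637 CPM, median 504, in the labelled mutants. The groups overlapped widely, with a log2 fold change of -0.24 ± 0.16 (SE, edgeR adjusted p = 0.26). Timp3 lies within Syn3 on the opposite strand and shares 21.3% of its exon bases with it, and Syn3 was called lower (log2 fold change -0.74 ± 0.20 SE, edgeR adjusted p = 0.0125). Timp4, known as a TIMP of the heart, had between 1 and 9 reads per library, 54 in all, and was not tested.

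Among the Mmp genes, 12 of 23 were tested, 4 were called higher and 1 lower. The gelatinases, which degrade denatured collagen and collagen IV, were called in opposite directions. Mmp2, gelatinase A, had 86.6, 84.5, 61.1 and 79.0 CPM in the controls and 103 to 169 CPM, median 124, in the labelled mutants. All labelled mutants were above all controls, with mutant M2 highest and control F1 lowest. The log2 fold change of Mmp2 was 0.70 ± 0.15 (SE, edgeR adjusted p = 0.00272), a 1.63-fold difference.

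Mmp9, gelatinase B, which neutrophils and macrophages carry among other cells, had 1.00, 8.93, 4.70 and 6.77 CPM in the controls. The labelled mutants had 0.545 to 3.2 CPM with a median of 1.48. Control M1 lay below every labelled mutant except M3, so the groups overlapped, while the other controls lay above all labelled mutants. These values rest on 7 to 54 reads per control library and 2 to 22 per labelled mutant library. Mmp9 was 3.08-fold lower (log2 fold change -1.62 ± 0.46 SE, edgeR adjusted p = 0.0168), but the call was lost without control M2 (adjusted p = 0.0712), without control F2 (0.052) and with limma on log2 CPM (0.0739). The summed level of the listed neutrophil markers was 1.57 to 3.93 CPM in the controls and 2.72 to 11.6 CPM in the labelled mutants, and only 1 of them, Csf3r, had enough reads to be tested (not called). The part of neutrophils or other cells in the level of Mmp9 was not tested.

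Mmp12, the macrophage elastase, was the least abundant member tested, at 1.29, 0.496, 0.627 and 0.406 CPM in the controls, which are 9, 3, 4 and 3 reads. In the labelled mutants it had 1.09 to 3.2 CPM, median 1.90, from 4 to 22 reads. Control M1 lay above the lowest labelled mutant, M3, and the other controls lay below all of them. The log2 fold change was 1.53 ± 0.38 (SE, edgeR adjusted p = 0.00857). With at most 9 reads in any control library, Mmp12 passed the low-count filter only through the labelled mutants, the group where it was higher. It is counted among the 12 members called higher, and this limit applies to that count. The same holds for Adamts14, described below, which with 9 reads in control M2 also passed only with the labelled mutants. Macrophage markers moved with Mmp12: their summed level was 198 to 275 CPM in the controls and 317 to 456 CPM in the labelled mutants, highest in mutant M2, and 4 of 4 tested markers (Ptprc, Cd68, Csf1r and C1qa) were called higher. Their part in the result was not tested.

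Mmp19, a secreted MMP with substrates in basement membrane, had 9.14, 8.77, 6.11 and 9.47 CPM in the controls and 10.1 to 17.6 CPM, median 11.5, in the labelled mutants. The groups were apart by a narrow margin, with a log2 fold change of 0.63 ± 0.18 (SE, edgeR adjusted p = 0.0191). Mmp23, a type II membrane MMP that is released by cleavage, had 24.6, 23, 19.6 and 22.5 CPM in the controls and 26.9 to 43.8 CPM, median 32.8, in the labelled mutants. Here too no labelled mutant reached down to a control, and the log2 fold change was 0.63 ± 0.15 (SE, edgeR adjusted p = 0.00701). Both lie just above the fold threshold of 1.5, at 1.55-fold, and both calls were lost without control F1 (log2 fold changes 0.51 for Mmp19 and 0.57 for Mmp23), without mutant F3 (0.58 and 0.57) and without mutant M2 (0.53 and 0.55). For Mmp23 the call was also lost with the trend of fold change on transcript length or on GC content removed (0.44 and 0.58). Mmp19 shares 22.3% of its exon bases with Tmem198b, so some of its reads cannot be assigned.

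The membrane-type MMPs, which act at the cell surface, gave no call in 4 tested. Mmp14, which cleaves fibrillar collagen and activates pro-Mmp2, had 36.3, 33.1, 21.9 and 18.3 CPM in the controls and 32.8 to 50.5 CPM, median 38.6, in the labelled mutants. Controls M1 and M2 lay within the range of the labelled mutants and controls F1 and F2 below it. Its log2 fold change of 0.56 ± 0.19 (SE, edgeR adjusted p = 0.0351) fell short of the fold threshold. The result was on the edge of a call: of the 10 fits that leave out a library, 5 gave an adjusted p over 0.05, between 0.0532 and 0.109 (without control F1 or F2 or mutant F1, F2 or M2), and 4 called Mmp14 higher, at log2 fold changes of 0.59 to 0.74 (without control M1 or M2 or mutant F3 or M3). Upper-quartile scaling, limma and labelled sex as a covariate, either way, also called it, each at 0.59. Mmp15 had an adjusted p of 0.0162 at a log2 fold change of -0.41, also short of the threshold. Mmp16 and Mmp17 had log2 fold changes of -0.11 and 0.23.

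The remaining tested MMPs were not called. The stromelysins Mmp3 and Mmp11 had log2 fold changes of 0.59 ± 0.59 (SE) and -0.09 ± 0.14 (SE), and the levels of Mmp3 ran from 0.315 to 5.97 CPM in the labelled mutants. Mmp28 was at 0.03 ± 0.13 (SE). The collagenases and the matrilysin Mmp7 were below the filter. A single stretch of 427072 bases at chr9:7272514-7699585 holds 10 Mmp genes (Mmp13, Mmp12, Mmp1b, Mmp3, Mmp1a, Mmp10, Mmp8, Mmp27, Mmp20 and Mmp7) and no other gene of the table. In right atrium 2 of these 10, Mmp12 and Mmp3, had enough reads to be tested, and 4 had no read in any library.

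ADAMTS genes were the most divided family. Of 19 genes 15 were tested, 3 were called higher and 5 lower.

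Among the procollagen N-proteinases, which remove the amino-terminal propeptide before fibrils form, 2 of 3 tested were called higher. Adamts2, the main enzyme for procollagens I and III, had 65.3, 53.9, 37.3 and 38.7 CPM in the controls and 111 to 166 CPM, median 130, in the labelled mutants. The gap between the groups was wide, and controls M1 and M2 were again above F1 and F2. It was 2.80-fold higher (log2 fold change 1.48 ± 0.17 SE, edgeR adjusted p = 3.61e-05). Adamts14, a close relative, had 2.29, 1.49, 2.67 and 2.57 CPM in the controls and 2.72 to 6.62 CPM, median 5.19, in the labelled mutants. Mutant M3, the library with the fewest counts outside Rn45s, was lowest and nearly met the controls. The log2 fold change of Adamts14 was 1.19 ± 0.25 (SE, edgeR adjusted p = 0.00301). Like Mmp12, Adamts14 passed the low-count filter only with the labelled mutants, the group where it was higher. Adamts3, the third member, overlapped between the groups at 0.09 ± 0.15 on the log2 scale (SE, edgeR adjusted p = 0.689).

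The proteoglycan-cleaving enzymes, which include the 5 genes with the asparagine form of the zinc site, held both directions. Adamts1, which cleaves versican and aggrecan, had 77.0, 70.6, 70.6 and 61.2 CPM in the controls and 123 to 345 CPM, median 149, in the labelled mutants. Every labelled mutant was above every control, and mutant M2 was at 345 CPM where the next mouse was at 166. Its log2 fold change was 1.35 ± 0.25 (SE, edgeR adjusted p = 0.00135), and 1.05 without mutant M2 (edgeR adjusted p = 2.00e-05).

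Adamts15, a versican and aggrecan protease of the same branch, went the other way. It had 69.6, 113, 68.8 and 54.3 CPM in the controls and 29.8 to 45.2 CPM, median 38.8, in the labelled mutants. Control M2 was highest, and all controls lay above all labelled mutants. The log2 fold change was -0.97 ± 0.17 (SE, edgeR adjusted p = 0.000863), a 1.97-fold lower level. Adamts9 had an adjusted p of 0.0191 at a log2 fold change of 0.53, under the fold threshold, and Adamts4, Adamts5 and Adamts8 were not called at 0.70 ± 0.39, 0.20 ± 0.15 and 0.39 ± 0.32 (log2 fold change, SE). Adamts9 was called higher with the length trend removed (0.75, edgeR adjusted p = 0.00157), without control M2 (0.63) and without mutant M3 (0.62). Adamts8 was called higher without control M1 (0.91, edgeR adjusted p = 0.0226), which had 33.9 CPM where the other controls had 8.39 to 16.9.

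A pair of neighbouring genes holds each of the called proteoglycanases. Adamts1 and Adamts5 lie 53059 bases apart on chromosome 16, with log2 fold changes of 1.35 and 0.20. With the length trend removed these were 1.46 and 0.51, and Adamts5 then had an edgeR adjusted p of 0.0291, still under the fold threshold. Adamts15 and Adamts8 lie 20109 bases apart on chromosome 9, at -0.97 and 0.39. In both pairs 1 gene was called and its neighbour was not, and the difference within a pair was not tested.

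Adamts7, which cleaves cartilage oligomeric matrix protein (Comp) and is known from vascular disease, showed the lowest log2 fold change of the family. It had 18.7, 18.7, 35.6 and 26.1 CPM in the controls and 4.08 to 8.57 CPM, median 7.49, in the labelled mutants. The lowest control exceeded the highest labelled mutant, and among the controls F1 and F2 were above M1 and M2. Adamts7 was 3.43-fold lower (log2 fold change -1.78 ± 0.21 SE, edgeR adjusted p = 3.73e-05). Adamts12, its closest relative, was not called at 0.17 ± 0.18 on the log2 scale (SE, edgeR adjusted p = 0.506), and the level of Comp itself was 43.5 ± 10.6 CPM in the controls (SD, n = 4) and 42.1 ± 16.1 CPM in the labelled mutants (SD, n = 6).

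The last group holds enzymes linked to fibrillin microfibrils and others with few known substrates. Of 4 tested, 3 were called lower and none higher. Adamts6, which cleaves microfibril components, had 57.0, 62.4, 60.4 and 58.1 CPM in the controls, the tightest set of control values among the called members, and 18.5 to 31.2 CPM, median 25.6, in the labelled mutants. The groups were far apart, with mutant M2 lowest. The log2 fold change was -1.20 ± 0.13 (SE), with the smallest adjusted p of the members (edgeR, 1.74e-05).

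Adamts19, which is known from heart valve disease, had 26, 28, 31.8 and 25.2 CPM in the controls and 6.93 to 18.8 CPM, median 12.2, in the labelled mutants. No labelled mutant reached the controls, although the labelled mutants varied widely among themselves, with F1 highest and F2 lowest. The log2 fold change was -1.15 ± 0.20 (SE, edgeR adjusted p = 0.000821). Adamts17, whose loss in people gives a connective tissue syndrome with short stature, had 4.57, 6.78, 5.02 and 4.20 CPM in the controls and 2.53 to 3.62 CPM, median 2.95, in the labelled mutants. These groups did not overlap either, at a log2 fold change of -0.76 ± 0.19 (SE, edgeR adjusted p = 0.00972). Adamts10, the closest relative of Adamts6, was not called, at 0.23 ± 0.08 on the log2 scale (SE, edgeR adjusted p = 0.0456). This related pair had values of opposite sign, with all labelled mutants lower for Adamts6 and all higher for Adamts10. The small difference of Adamts10 was on the edge: its edgeR adjusted p was 0.132 with the GC trend removed and 0.0622 without mutant M2. It was 0.0177 with the length trend removed and 0.0486 without mutant M3.

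Taken per kilobase of the longest transcript, so that genes can be compared, the levels of the 35 tested members in control mice ran from 131 CPM per kb for Timp3 and 58.3 for Timp2 down to 0.157 for Mmp12. Mmp2 followed at 25.3, Mmp15 at 23.8, Loxl1 at 19.4 and Adamts10 at 18.2 CPM per kb. In the labelled mutants Timp3 and Timp2 remained first, at 111 and 49.4, and next came Mmp2 at 41.1, Adamts1 at 36.4, Loxl1 at 34.2 and Timp1 at 27.0 CPM per kb. Lox stood at 1.53 in the controls and 5.42 in the labelled mutants on this scale. The order rests on group means, and neighbours in it often lie within each other's SD.

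**Figure D3:**
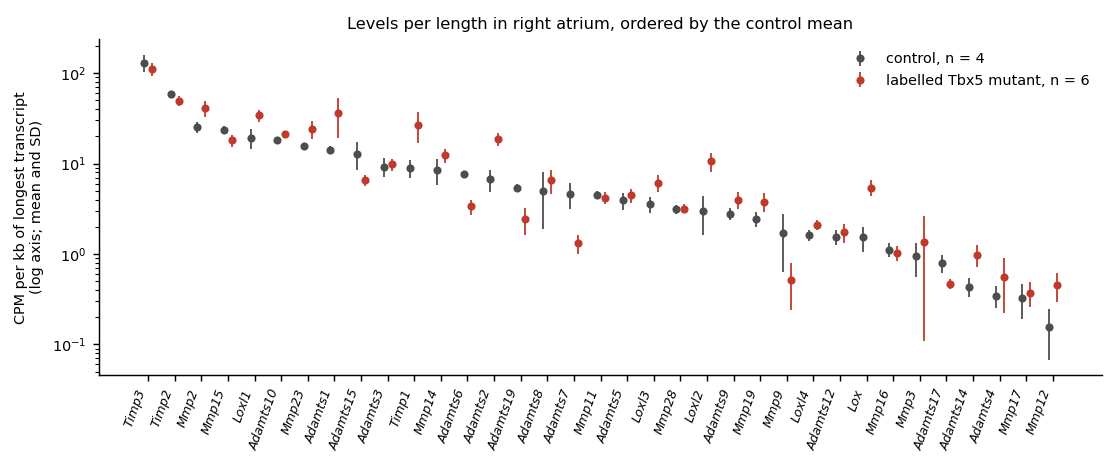
Levels of the 35 tested genes as CPM per kilobase of the longest transcript, on a log axis, ordered by the control mean, with group means as points and SD as bars. The 2 abundant inhibitors lead in both groups, Timp3 at 131 and 111 and Timp2 at 58.3 and 49.4, while Lox moves from 1.53 to 5.42 and Adamts7 from 4.61 to 1.32.

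The 16 members that were not tested were Adamts13, Adamts16, Adamts18, Adamts20, Mmp1a, Mmp1b, Mmp7, Mmp8, Mmp10, Mmp13, Mmp20, Mmp21, Mmp24, Mmp25, Mmp27 and Timp4. Of these, 5 had no read in any library (Adamts16, Mmp1a, Mmp1b, Mmp7 and Mmp10). For these a count of 0 allows up to 3 counts in a library, which is 0.4 to 0.817 CPM, and covers counting error only. The other 11 had reads, and in an edgeR fit without the filter none of them was called (lowest adjusted p = 0.178, for Mmp25, and 0 with an unadjusted p under 0.05). The highest count of any of the 16 in a single library was 12, for the collagenase Mmp13. The interstitial collagenases of the table (Mmp1a, Mmp1b, Mmp8 and Mmp13) were all in this set.

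The matrix genes on which these enzymes act were taken from a list of 64 substrates, scaffold proteins, modifying enzymes and regulators, of which 56 were tested. In the labelled mutants 23 were called higher and 1 lower, which is 42.9% of those tested against the 15.7% of all genes given above. The fibrillar and elastic substrates led, with 8 of 9 tested called higher and none lower. Eln, the elastin precursor and a substrate of Lox and Mmp12, had 96.2 ± 34.3 CPM in the controls (SD, n = 4) and 494 ± 122 CPM in the labelled mutants (SD, n = 6), a log2 fold change of 2.36 ± 0.24 (SE, edgeR adjusted p = 1.50e-05). The microfibril gene Fbn1 had 291 ± 91.4 against 851 ± 135 CPM (SD), with all labelled mutants above all controls. Collagen genes were called in the same direction, with log2 fold changes of 1.31 for Col1a1, 1.19 for Col1a2, 1.27 for Col3a1, 1.16 for Col5a1 and 1.64 for Col5a2, all of them with groups that did not overlap.

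Of the other classes, the proteoglycan and glycoprotein substrates had 3 of 4 tested called higher. Vcan, versican, the substrate of Adamts1 and Adamts15, had 99.9 ± 25.9 CPM in the controls (SD, n = 4) and 223 ± 33.3 CPM in the labelled mutants (SD, n = 6), a log2 fold change of 1.16. Among the elastic fibre scaffold genes 4 of 9 were called higher, among them Fbln2 at 1.13, and 1 lower, Fbln1 at -0.88 ± 0.15 (SE, edgeR adjusted p = 0.000559). Plod2, the hydroxylase that prepares collagen telopeptide lysines for crosslinking, was higher by 0.61 on the log2 scale, the only one of 5 tested collagen hydroxylases to be called. Adamtsl5, an ADAMTS-like protein without a protease domain, was higher by 0.92.

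**Figure D4:**
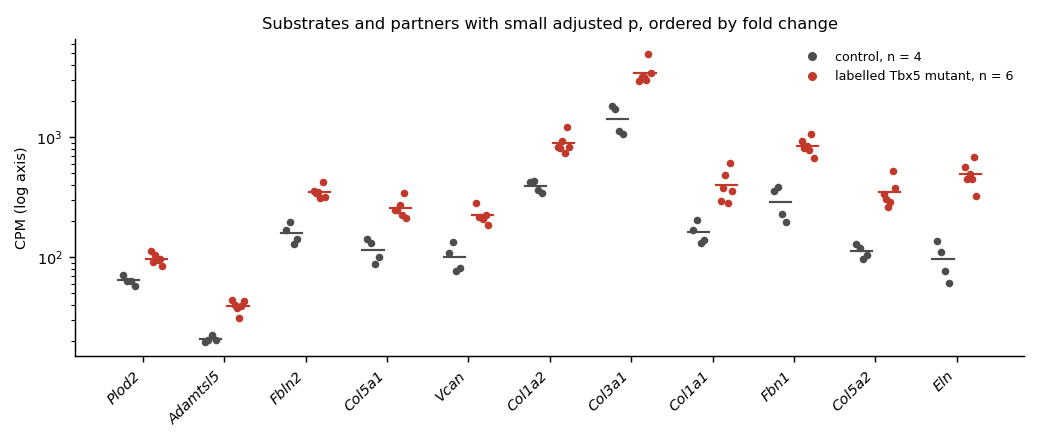
CPM in each mouse, on a log axis, of 11 called substrates and partners with small adjusted p, ordered by fold change from Plod2 (0.61 on the log2 scale) to Eln (2.36). Bars are group means, and for each of the 11 every mouse labelled Tbx5 mutant lies above every control mouse.

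Markers of several cell types or states moved with these genes. The summed level of the activated fibroblast markers Postn, Cthrc1 and Tnc was 84.3 to 257 CPM in the controls and 624 to 1139 CPM in the labelled mutants, with 3 of 3 called higher. The general fibroblast markers (Pdgfra, Dcn, Lum, Tcf21 and Dpt) summed to 2431 to 3093 and 2512 to 3210 CPM, with 0 of 5 called. The cell cycle genes Mki67, Top2a and Cdk1 summed to 10.6 to 24.7 and 66.3 to 232 CPM, with 3 of 3 higher. Endothelial markers were at 830 to 1197 and 926 to 1129 CPM with 0 of 4 called, and epicardial markers at 277 to 290 and 161 to 335 CPM with 0 of 4 called. Acta2 was the 1 of 5 smooth muscle and pericyte markers called higher, and their sum was 240 to 297 against 309 to 653 CPM. Adipocyte markers reached 0.47 to 4.14 CPM in the controls and 0 to 20.8 CPM in the labelled mutants, highest in mutant M2. Cardiomyocyte markers summed to 61124 to 73001 CPM in the controls and 51459 to 65617 CPM in the labelled mutants, lowest in mutant M2, with Myl7 and Nppa called lower and Tnnt2 and Actc1 higher. The part of these cell types in the values of the proteases, inhibitors and oxidases was not tested.

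Mice differed within the groups in a way that many members shared. Mutant M2 held the highest value of the labelled mutants for 10 of the 12 members called higher. Control M1 was the highest control for 8 of these 12, and control F1 the lowest for 8. The same counts were not made over all genes tested, so they are not shown to be particular to the members. Without mutant M2, 10 members were called higher and 6 lower, and without mutant M3, the library rich in Rn45s, 14 were called higher and 6 lower.

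**Figure D5:**
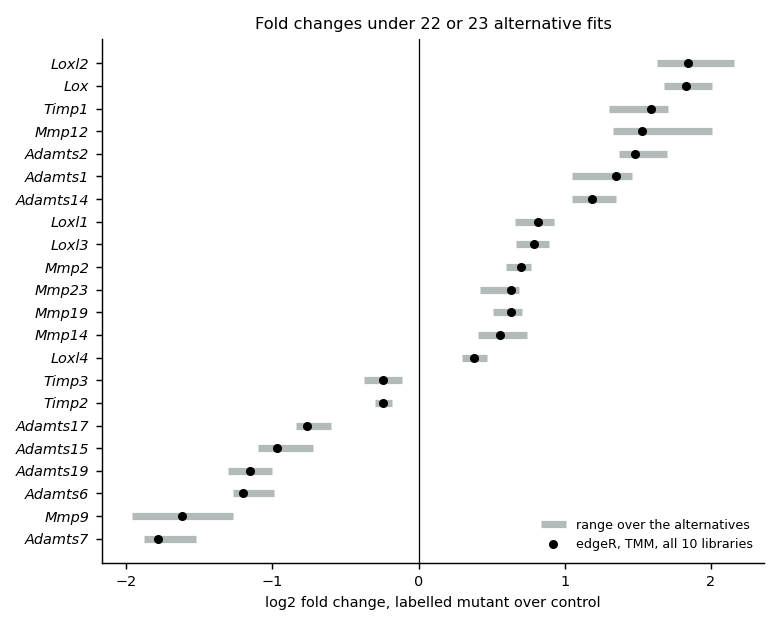
Log2 fold change of the 22 genes described in full (points), labelled mutant over control, with the range of the same value over 22 or 23 alternative fits (bars), which include other scalings, other tools, covariates and each library left out. No bar crosses 0. Lox ranges from 1.68 to 2.01 and Adamts6 from -1.27 to -0.99, while Mmp9 has a wide bar, from -1.96 to -1.27.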

How the data were processed

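The authors deposited 1 table of whole-number counts per gene and library, together with a normalized signal, each count divided by a DESeq2 size factor, as deposited. That signal was used here only for the call rule. The deposited columns of the authors' own comparison (log2 fold changes with standard errors, the Wald score, p-values and linear fold ratios) were not used. The submitters' processing notes name FastQC, TopHat2 2.0.11, featureCounts, DESeq2 and mm10, without roles. The methods describe both an mRNA kit and ribosomal depletion, and do not say which served these libraries. Differences were fitted in R 4.3.3 by edgeR 4.0.16 (expression filter, TMM scaling, quasi-likelihood test, prior count 0.125, 4 control against 6 labelled mutant libraries, no covariates). Each SE was the absolute log2 fold change divided by the root of the F statistic. CPM used TMM library sizes. Fits were tested on simulated data. Named in full were the called members, the gelatinases, Mmp14, Adamts1, the Timp genes and the lysyl oxidases, and up to 12 called partners by adjusted p, of which 1 is not reported here. The members and lists were chosen with earlier results of these data known. Nothing in the sources says more of how the mice relate, so p-values measure the spread between these 10 libraries. Reads carry no molecular identifiers, and floors of 3 counts cover counting error only. Transcript lengths, exons and coding sequences came from GENCODE M21 (GRCm38), with all 51 members matched by symbol. Alternatives were DESeq2 1.42.0, limma 3.58.1 on log2 CPM, other scalings, filters and thresholds, labelled sex (also with the control labels exchanged), the replicate number as a block, trends on length or GC content removed, and each library left out.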

Additional observations from a re-analysis of the deposited data

Results flagged for a closer look

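Single mice that lay far from the rest of their group were looked for by Dixon's criterion in the 70 groups of values of the 35 tested genes, 1 group of 4 and 1 of 6 mice for each. It marked 4, where chance alone would mark 3.5 at 1 in 20, and all 4 were the highest value of mutant M2. Adamts1 had 345 CPM in mutant M2 (2367 reads), with the next labelled mutant at 166 CPM. Adamts4 had 5.39 CPM there (37 reads) against 2.37 in the next mouse, and without mutant M2 its log2 fold change went from 0.70 to 0.30, not called in either case. Lox had 35.5 CPM (244 reads) against 25.4, and its log2 fold change was 1.73 without that mouse (edgeR adjusted p = 1.65e-05). Timp1 had 41.1 CPM (282 reads) against 23.7. Mutant M2 also had the highest summed macrophage (456 CPM), neutrophil (11.6 CPM) and adipocyte (20.8 CPM) markers of the 10 mice. The part of these in its values was not tested.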

How the results depend on the processing

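Over 22 or 23 alternative fits of the 22 members described in full, 501 values in all, 483 stayed on the same side of the 0.05 threshold for the adjusted p, 12 no longer passed it, 6 newly passed it and none changed sign. For 15 of the 22 members no alternative fit moved the adjusted p across 0.05, and for 17 the call itself was the same in every fit that tested them. The other 5 were Adamts17, Mmp9, Mmp14, Mmp19 and Mmp23. Members called higher numbered 7 with a fold change over 2, against 12, and those called lower ran from 5 to 6 with each library left out. Partner genes called lower, 1 in the fit given, numbered 0 with a fold change over 2, 4 without a fold threshold and between 1 and 2 with a library left out (2 without mutant M1). All genes called, 2049 in the fit given, numbered 1284 with a mean count of at least 50, 906 with a fold change over 2 and 4096 without a fold threshold. With a mean count of at least 50, Adamts14, Adamts17, Mmp9 and Mmp12 were not tested. The settings that changed Mmp9, Mmp19, Mmp23 and Mmp14 are given with those genes, apart from the block, and Mmp14 had an adjusted p of 0.0611 with the GC trend removed. Adamts17 had an adjusted p of 0.062 with the replicate block and the length trend removed together. Loxl4 passed with limma (0.0482) and without mutant F1 (0.0465), and Timp2 with the GC trend removed (0.0232).

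Replicate numbers M1, M2, F1 and F2 are shared between the groups, while F3 and M3 occur only among the labelled mutants. A block on these numbers therefore takes mutants F3 and M3 out of the fitted difference between the groups. By Xist and Ddx3y, same-numbered mice were of opposite sex. Correlations were taken between a control and a labelled mutant, on the deviation of each gene from its group mean. Those of same-numbered mice were -0.047, 0.0358, -0.0313 and 0.014, and the mean of other pairs was 0.00129. Such deviations cancel within a group, so a mean over many pairs is held near 0 by the calculation. These values gave no sign of pairing by number, but so few pairs cannot exclude a shared litter or batch. With the replicate block, 16 of the 18 calls were made again, Mmp19 and Mmp23 were lost and Mmp14 was gained, and Timp2 and Timp3 had adjusted p-values of 0.0452 and 0.0479 at log2 fold changes of -0.30 and -0.36. Log2 fold changes were lower for longer transcripts over 11868 genes (Spearman rho -0.314), and over the 35 members rho was -0.215. With that trend removed rho was 0.00448 and -0.0647, 17 of the 18 calls were made again and the median of the members was 0.43. Labelled sex as a covariate, either way, and the counts without Rn45s lost none of the 18 calls. Depth limits the members near the floor of 3 counts, among them Mmp12 and the 16 that were not tested.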
